A study of Saccharomyces cerevisiae with 48 samples.

Results

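The sexual agglutinins of Saccharomyces cerevisiae and a related mating adhesin were followed through 48 one-colour microarrays. The members were chosen by symbol, AGA1, AGA2, SAG1 and FIG2, and all 4 were found among the 6256 genes on the array. Agglutinins are wall glycoproteins through which haploid yeast cells of opposite mating type stick to each other before they fuse. MATa cells carry a-agglutinin, in which the small subunit Aga2 binds the partner cell and is held by disulfide bonds to Aga1, a wall protein attached through a glycosylphosphatidylinositol (GPI) anchor. MATalpha cells carry alpha-agglutinin, encoded by SAG1, which is the ligand of Aga2. AGA1 and FIG2 are used by both mating types, and FIG2, named as a factor-induced gene, encodes a GPI wall protein of mating cells. In textbook MATa cells AGA2 is on and SAG1 is off, and alpha factor, the peptide pheromone of MATalpha cells, raises transcription through the factor Ste12.

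All strains were MATa per the series description and were grown in YPAD medium to mid-log phase. They came from a cross named YJM789 X S96, and both parents, S96 and HS959, carry that same strain entry in the labels, which say nothing more of the genotype of HS959 than that it is a parental line. The treated groups were the parental lines S96 and HS959, 1 array each, and 43 segregants, 1 array each, incubated with 5 µM alpha factor at 30 °C for 30 min. The untreated group was S96, HS959 and the segregant SEG8, 1 array each, shaken for the same 30 min without alpha factor. Each strain had 1 array per condition, so a difference between strains within a condition has no replicate check, and the number of arrays limits the precision. Per the labels the RNA came from whole cultures, where fewer cells with a transcript and less of it per cell cannot be told apart.

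A level here is the log2 intensity of a gene, averaged over the 2 spots of its probe, after the array's own 75th percentile was subtracted. AGA1 (YNR044W, chromosome XIV), AGA2 (YGL032C, chromosome VII), SAG1 (YJR004C, chromosome X) and FIG2 (YCR089W, chromosome III) lie on 4 different chromosomes. Their coding lengths in assembly R64 were 2178, 264, 1953 and 4830 bases. Each was well above background on all 48 arrays and none of its spots was marked as an outlier. The median difference between duplicate spots was 0.05 for AGA1, 0.08 for AGA2, 0.08 for SAG1 and 0.11 for FIG2 (log2). With 1 probe per gene, variation in sequence under the probe and variation in RNA cannot be told apart between strains. Levels of different probes are not compared with each other as amounts of RNA.

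The share of gene spots well above background was 94.0% to 99.9% per array. All 7 marker genes of MATa cells and all 6 of haploid cells were well above background on all 48 arrays. So were all 5 MATalpha markers, SAG1 among them, although these genes are off in textbook MATa cells. On treated arrays the MATa marker STE2, the alpha-factor receptor gene, had levels of 1.99 to 2.93, STE6 of 1.25 to 1.87 and BAR1 of 1.89 to 2.58. MFA1 ranged from 0.77 to 3.28, MFA2 from 0.84 to 2.92, ASG7 from 2.43 to 3.47 and AGA2 from 2.25 to 3.48. On the same arrays the MATalpha gene STE3 ranged from -7.89 to -2.65, MF(ALPHA)1 from -7.50 to -2.25 and MF(ALPHA)2 from -4.59 to 1.39. AFB1 ranged from -2.43 to 0.26 and SAG1 from -2.90 to 0.12. The part of any MATalpha cells in these signals was not tested.

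All 4 genes rose with alpha factor in each of the 3 strains measured both ways. FIG2 rose most, by 4.81 on the log2 scale (95% interval 20.4-fold to 38.4-fold). AGA1 rose 6.28-fold (4.03 to 9.77), SAG1 3.77-fold (2.14 to 6.62) and AGA2 3.40-fold (2.01 to 5.75). The question was which genes respond to the pheromone, and of 6252 genes tested 940 (15%) were called higher with alpha factor and 1280 (20.5%) lower, 35.5% in all. FIG2 had the increase of rank 17 among the 6252 genes, AGA1 rank 53, SAG1 rank 92 and AGA2 rank 109. A call means a Benjamini-Hochberg adjusted p under 0.05 in limma, fitted on the 6 arrays of the 3 strains with strain as a term.

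FIG2 had untreated levels of -1.93 in S96, -1.59 in HS959 and -1.88 in SEG8, and treated levels of 3.35, 2.91 and 2.77. The groups did not overlap, which was so in the same direction for 14.4% of all genes tested, and the 3 strains lay close together within each condition. The mean FIG2 change was 4.81 ± 0.41 (SD over strains, n = 3; limma adjusted p = 0.000748).

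AGA1, the anchor subunit, had untreated levels of 0.14 in S96, 0.90 in HS959 and -0.28 in SEG8, and treated levels of 3.31, 2.88 and 2.53. Every treated array was above every untreated one, and HS959 had the highest untreated level. On average AGA1 changed by 2.65 ± 0.61 (SD over strains, n = 3; limma adjusted p = 0.00414).

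AGA2, the binding subunit, had untreated levels of 0.89 in S96, 1.74 in HS959 and 0.71 in SEG8, and treated levels of 3.35, 2.75 and 2.54. The groups did not overlap, and HS959 again had the highest level of the 3 untreated arrays. On average AGA2 changed by 1.77 ± 0.73 (SD over strains, n = 3; limma adjusted p = 0.0137).

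SAG1, the agglutinin of the opposite mating type, had untreated levels of -2.41 in S96, -2.62 in HS959 and -2.92 in SEG8, and treated levels of -1.35, -0.01 and -0.84. The groups did not overlap here either, and on treated arrays the order of strains was the reverse of that of AGA1, AGA2 and FIG2 for the parents, with HS959 above S96. On average SAG1 changed by 1.91 ± 0.79 (SD over strains, n = 3; limma adjusted p = 0.0134). The calls of AGA2 and SAG1 were lost without SEG8, although the mean changes stayed near, at 1.73 and 1.83 (limma adjusted p = 0.0803 and 0.0808). FIG2 and AGA1 stayed past the threshold (limma adjusted p = 0.0130 and 0.0391). Over all genes 610 were called without SEG8, in place of 2220.

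**Figure D1:**
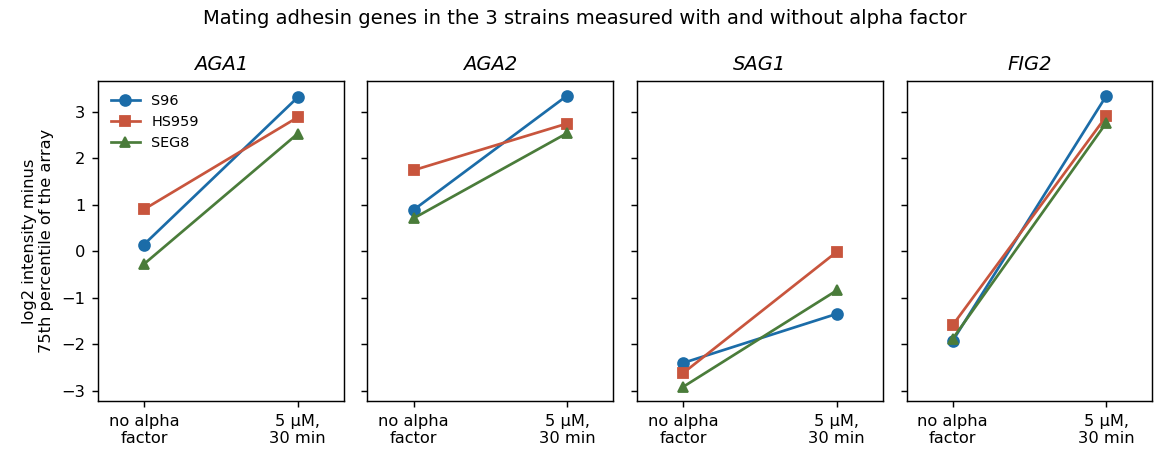
Level (log2 intensity relative to the 75th percentile) of AGA1, AGA2, SAG1 and FIG2 without and with 5 µM alpha factor, 1 line per strain and 1 array per point. All lines rise; HS959 starts highest for AGA1 (0.90) and AGA2 (1.74), and ends highest for SAG1 (-0.01).

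The size of the increase differed between the strains, and not in the same way for the 4 genes. AGA1 rose 8.97-fold in S96, 6.98-fold in SEG8 and 3.94-fold in HS959. AGA2 rose 5.50-fold in S96, 3.57-fold in SEG8 and 2.01-fold in HS959. FIG2 rose 38.7-fold in S96, 25.1-fold in SEG8 and 22.6-fold in HS959. For these 3 genes the smallest increase was in HS959 and, with this scaling, the largest in S96. With quantile normalization HS959 again had the smallest increase, but the largest was in SEG8 for AGA1 (7.72-fold, against 6.05-fold in S96) and FIG2 (30.1-fold, against 28.7-fold in S96). For AGA2 it stayed in S96 (3.85-fold, against 3.67-fold in SEG8). SAG1 had the opposite order, with 6.10-fold in HS959, 4.22-fold in SEG8 and 2.08-fold in S96, and kept it with quantile normalization.

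These differences between strains were tested by setting the change of 1 strain against the mean change of the others, with 1 residual degree of freedom beside the prior. Each of the 4 genes was tested in each of the 3 strains, and the tests given here are those with an unadjusted p under 0.05. In the remaining tests of these genes limma gave an unadjusted p of 0.0689 (AGA2 in S96) or more. The change of AGA1 in HS959 differed from the mean of the others by -1.01 ± 0.26 (SE; limma unadjusted p = 0.0180, adjusted p = 0.940), and that of AGA2 by -1.14 ± 0.34 (limma unadjusted p = 0.0292, adjusted p = 1.00). The change of SAG1 in S96 differed from that of the others by -1.29 ± 0.29 (limma unadjusted p = 0.0135, adjusted p = 0.476), and that of FIG2 in S96 by 0.70 ± 0.17 (limma unadjusted p = 0.0164, adjusted p = 0.490). None passed after adjustment, and limma called 0 of 6252 genes (0%) in any of the 3 strains, with 565 genes at an unadjusted p under 0.05 for S96, 240 for HS959 and 233 for SEG8.

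The parental lines were compared to see whether the adhesin genes differ between them. Over both conditions HS959 minus S96 was 0.16 for AGA1 (95% interval -0.62 to 0.95; limma adjusted p = 0.709) and 0.13 for AGA2 (-0.80 to 1.05; adjusted p = 0.816 in limma). The difference was 0.56 for SAG1 (-0.44 to 1.56; limma adjusted p = 0.329) and -0.05 for FIG2 (-0.61 to 0.51; limma adjusted p = 0.880), each parent having 2 arrays. None of the 4 was called, whereas 20.6% of the 6252 genes were (6.67% higher and 14% lower in HS959), and the intervals hold differences of at least 0.51 in either direction for AGA1, AGA2 and FIG2. The mean over conditions hides opposite differences. Untreated, HS959 was above S96 by 0.76 for AGA1, 0.85 for AGA2 and 0.34 for FIG2, and treated it differed by -0.43, -0.60 and -0.44. SAG1 went the other way, with -0.22 untreated and 1.33 treated.

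The treated differences of AGA1, AGA2 and FIG2 moved with the scaling of the arrays. With quantile normalization, which gives every array the same distribution, the treated difference HS959 minus S96 was 0.08 for AGA1, -0.08 for AGA2 and 0.08 for FIG2, and the untreated difference stayed at 0.86, 0.99 and 0.47. SAG1 kept 1.35 treated and -0.08 untreated. The distance from the 75th to the 99th percentile of gene spots, a measure of the bright end of an array, was 3.47 on the treated S96 array and 2.95 on the treated HS959 array (log2). On untreated arrays it was 3.22 in S96 and 3.06 in HS959. On treated arrays the mean spot intensity of AGA1, AGA2 and FIG2 lay between 153049 and 275985, at most 35.5% of the value at which the scanner saturates, and the brightest gene spot of an array lay between 274968 and 440158. SAG1 reached 34440, or 4.42% of the saturation value.

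Among the 43 treated segregants AGA1, AGA2 and FIG2 had narrow ranges of level and SAG1 a wider one. None of the 4 passed the main variance test given below. The genes also differed in signal, with treated intensities of 153049 to 275985 for these 3 and 4943 to 34440 for SAG1. The part of signal in the unlike ranges was not tested. AGA1 ranged from 2.25 in SEG37 over a median of 2.67 to 3.24 in SEG3, a 1.99-fold range. AGA2 ranged from 2.25 in SEG41 over a median of 2.70 to 3.48 in SEG3, a 2.34-fold range. FIG2 ranged from 2.37 in SEG37 over a median of 2.73 to 3.47 in SEG3, a 2.14-fold range. SEG3 was the highest segregant for all 3 of these genes, and for AGA2 and FIG2 it stood 0.38 and 0.35 above the next. The array of SEG3 also had the widest bright end of the segregants, 3.46 against a median of 2.85 (75th to 99th percentile, log2). Before scaling, its AGA1 intensity was 223854, below the 268421 of SEG44. The part of the scaling in the rank of SEG3 was not tested. Every segregant was above the highest untreated array for these 3 genes, by at least 1.35 for AGA1, 0.51 for AGA2 and 3.96 for FIG2. Over all 45 treated and 3 untreated arrays, 3.9% of the 6252 genes had no overlap in that direction, and 5.68% in the other.

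SAG1 ranged from -2.90 in SEG47 over a median of -1.51 to 0.12 in SEG7, an 8.09-fold range. The quartiles were -1.96 and -0.66, and the largest gap between neighbouring segregants was 0.29, so the values formed no separate groups. In 39 of 43 segregants SAG1 was above the highest untreated array (-2.41), and in 4, SEG47, SEG21, SEG42 and SEG30, it was not. Their levels of -2.90, -2.73, -2.44 and -2.44 overlapped the untreated levels, although these 4 cultures were labelled as treated and their AGA1, AGA2 and FIG2 levels were above every untreated array. With quantile normalization 41 of 43 segregants were above the highest untreated SAG1 level.

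**Figure D2:**
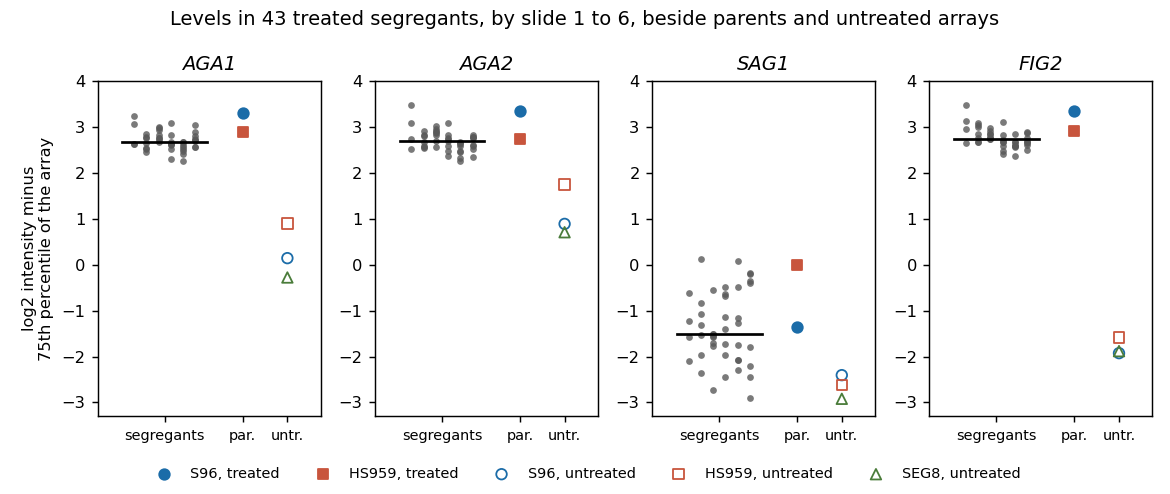
Level (log2 intensity relative to the 75th percentile) in 43 treated segregants (grey, placed from left to right by slide 1 to 6, black line the median), in the treated parents (filled) and on the 3 untreated arrays (open). Segregants form a narrow band for AGA1, AGA2 and FIG2 and spread from -2.90 to 0.12 for SAG1.

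The SD among segregants was 0.20 for AGA1, 0.23 for AGA2, 0.78 for SAG1 and 0.21 for FIG2 (n = 43). Of 6230 genes, 33.9% had a smaller SD than AGA2, 25.3% a smaller SD than FIG2 and 91.7% a smaller SD than SAG1. The variance was tested one-sided against the residual noise of the 6 paired arrays, and 31.8% of genes passed. AGA1 (F test on limma's noise variance, adjusted p = 0.911), AGA2 (0.933) and FIG2 (0.592) did not pass, and neither did SAG1 (adjusted p = 0.106). The noise SD was 0.30 for AGA1, 0.35 for AGA2 and 0.21 for FIG2, in each case above the SD among segregants. This noise holds the unequal responses of the paired strains, with their untreated arrays. The test therefore cannot decide whether AGA1, AGA2 and FIG2 varied among segregants by amounts of this size. The noise SD of SAG1 was 0.38, which holds the unequal responses of the 3 strains described above. With the noise taken from HS959 and SEG8 alone, without S96, SAG1 passed (adjusted p = 0.0357 in the F test on limma's noise variance). It did not pass with the noise taken without HS959 or without SEG8 (adjusted p = 0.102 and 0.207 in the same F test).

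The 43 segregants lay on 6 slides, with 4 to 8 on each. Slide had an effect on AGA1 (limma moderated F test, adjusted p = 0.0259), AGA2 (adjusted p = 0.0223 in limma) and FIG2 (limma adjusted p = 0.00934), as it had on 48% of 6230 genes, and not on SAG1 (limma adjusted p = 0.973). Slide medians ran from 2.54 to 2.84 for AGA1, from 2.53 to 2.91 for AGA2 and from 2.59 to 3.04 for FIG2. Within slides the SD was 0.18, 0.20 and 0.18 for AGA1, AGA2 and FIG2, against 0.82 for SAG1. Tested within slides against the same noise, none of the 4 passed (lowest adjusted p = 0.124, for SAG1, in the F test on limma's noise variance), and 18.4% of genes did.

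Against the treated parents, the segregants were not symmetrically placed. For AGA1 0 segregants were above both parents, 8 lay between them and 35 were below both. For AGA2 the numbers were 1, 17 and 25, for FIG2 1, 7 and 35, and for SAG1 2, 17 and 24. The mean of segregants minus the mean of parents was -0.39 for AGA1, -0.35 for AGA2, -0.36 for FIG2 and -0.70 for SAG1, with limma adjusted p = 0.761, 0.829, 0.761 and 1.00 (0.0321% of genes called). These differences rest on which parent is used: against HS959 alone, without S96, they were -0.18, -0.04, -0.14 and -1.37, and against S96 alone, without HS959, -0.61, -0.65, -0.58 and -0.03. The unadjusted p in limma was 0.0130 for AGA1 and 0.0236 for FIG2. With slide as a block these 2 differences were -0.20 and -0.08, and with quantile normalization -0.04 and -0.01. Both parents lay on slide 1, with 4 segregants. With quantile normalization 7 segregants were above and 27 below both parents for AGA1, 14 and 11 for AGA2, and 11 and 14 for FIG2.

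AGA1, AGA2 and FIG2 moved together over the 43 segregants, and SAG1 did not move with them. Pearson's r was 0.78 between AGA1 and AGA2 (Spearman's rho 0.77), 0.79 between AGA1 and FIG2 (rho 0.78) and 0.83 between AGA2 and FIG2 (rho 0.77). Within slides these were 0.72, 0.83 and 0.81, and without the 2 segregants farthest from the median 0.70, 0.71 and 0.77. SAG1 had r of -0.01 with AGA1, 0.10 with AGA2 and 0.00 with FIG2. These 6 correlations are descriptions over arrays that each hold 1 segregant, 1 labelling and 1 scaling.

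The correlation of AGA1, AGA2 and FIG2 moved with the brightness distribution of the arrays. Their levels correlated with the distance from the 75th to the 99th percentile with r of 0.91 for AGA1, 0.89 for AGA2 and 0.93 for FIG2 (rho 0.86, 0.86 and 0.91), and within slides with 0.92, 0.85 and 0.91. Without the 2 segregants farthest from the median level the values were 0.87, 0.87 and 0.89. SAG1 had r of -0.03 with it (rho -0.05). Level and distance both have the 75th percentile of the same array subtracted. The median levels of AGA1, AGA2 and FIG2 (2.67 to 2.73) also lay near the median distance of 2.85. A high r is therefore partly built in for genes this bright, and these values are descriptions only. With quantile normalization the correlations among the 3 genes were -0.18 for AGA1 and AGA2, -0.26 for AGA1 and FIG2 and -0.11 for AGA2 and FIG2, and their SDs fell to 0.09, 0.11 and 0.08, while that of SAG1 was 0.77.

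**Figure D3:**
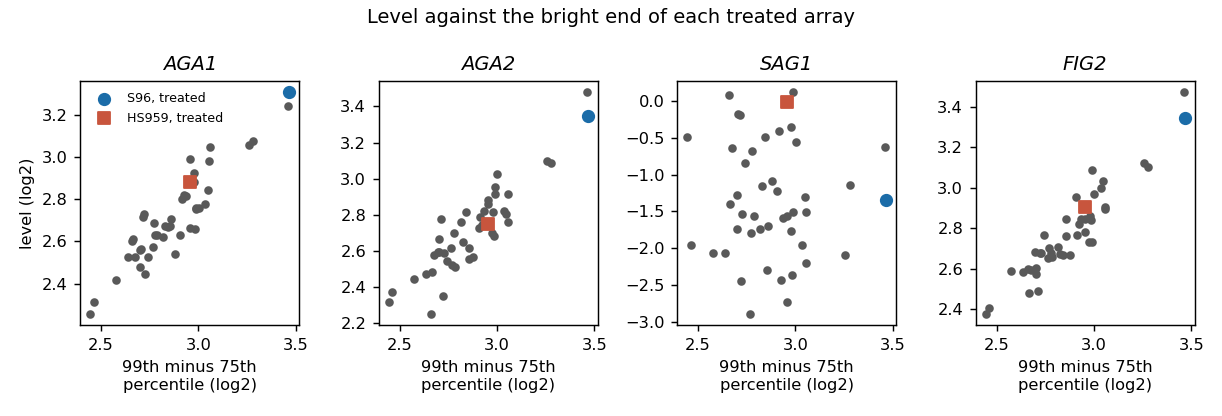
Level of each gene (vertical axis, log2) against the distance from the 75th to the 99th percentile of gene spots on the same array (horizontal axis, log2), for 43 treated segregants (grey) and the treated parents; the vertical scales differ. AGA1, AGA2 and FIG2 follow the bright end of the array (r = 0.91, 0.89 and 0.93) and SAG1 does not (r = -0.03). Both axes have the 75th percentile of the array subtracted, so r is partly built in for genes near the bright end.

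The genes most like each member over the segregants were looked up among 6227 genes. The 5 most alike to AGA1 had r of 0.93 to 0.95 and were the ribosomal protein genes RPL4B, RPS8A and RPL7A, the reading frame YDR154C and the elongation factor gene EFT2. All 5 most alike to AGA2 were ribosomal protein genes, RPL42A, RPS18A, RPS24A, RPL1B and RPS12, with r of 0.89 to 0.90. Those of FIG2 were RPL40A, RPL3, RPS24B and RPS11B and the actin gene ACT1, with r of 0.93 to 0.95. With quantile normalization these values were 0.34 to 0.64 for AGA1, 0.30 to 0.37 for AGA2 and 0.17 to 0.42 for FIG2. The least alike were SEC20 (r = -0.64) and MRX21 (-0.62) for AGA1, YKL222C (-0.68) and RGT1 (-0.59) for AGA2, and VPS15 (-0.61) and PAC1 (-0.61) for FIG2. The mean level of 12 cell and nuclear fusion genes correlated with AGA1 at r = 0.69, with AGA2 at 0.68 and with FIG2 at 0.76, against 0.04, -0.15 and 0.30 with quantile normalization, and with SAG1 at 0.00.

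SAG1 had another set of most alike genes, headed narrowly and with this scaling by another gene of the MATalpha programme. MF(ALPHA)2, which encodes an alpha-factor precursor, had r of 0.71 with SAG1 (rho 0.76), 0.77 within slides, 0.70 with quantile normalization and 0.71 without the 2 segregants farthest from the median. RNH70, an RNA exonuclease gene, followed with 0.71, LAC1, a ceramide synthase gene, with 0.70, EXO5 with 0.64 and EGT2 with 0.64. With quantile normalization LAC1 (0.701) and RNH70 (0.698) were slightly above MF(ALPHA)2 (0.697). The least alike were DET1 (r = -0.62) and YCR090C (-0.59). Of the other alpha-specific genes the a-factor receptor gene STE3 had r of 0.47 with SAG1 (rho 0.46), 0.60 within slides and 0.43 with quantile normalization. MF(ALPHA)1 had 0.29 and AFB1 0.06.

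**Figure D4:**
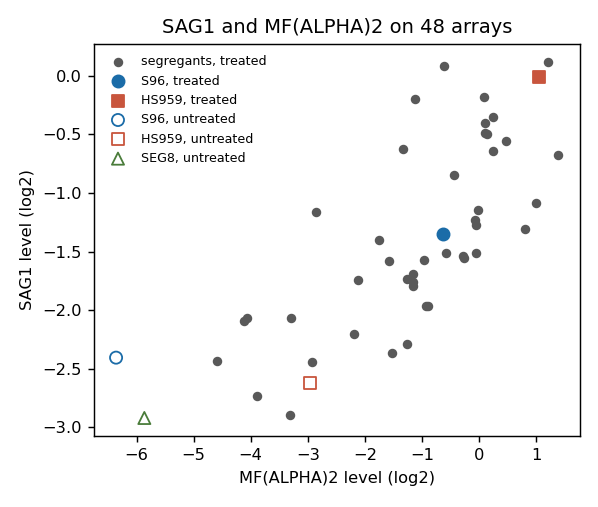
SAG1 level (vertical axis) against MF(ALPHA)2 level (horizontal axis), both in log2 units, on the 43 treated segregant arrays (grey), the treated parents (filled) and the untreated arrays (open). The segregants run from low in both to high in both (r = 0.71), with treated HS959 near the upper end.

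AGA2 was set beside the other a-specific genes, and SAG1 beside the other alpha-specific genes, because their defining mating types differ. All 7 a-specific genes rose with alpha factor (median change 0.91, beside -0.04 over all genes tested, of which 15% were called higher). ASG7, an a-specific inhibitor of signalling, rose by 3.81 and the alpha-factor protease gene BAR1 by 1.59. The a-factor genes MFA1 and MFA2 rose by 0.88 and 0.91, STE2 by 0.64 and the a-factor exporter gene STE6 by 0.63. Of 5 alpha-specific genes 4 rose (median 1.57) and AFB1 changed by 0.11. Among the segregants 0 of 7 a-specific genes varied past the noise, with a median SD of 0.21, and 3 of 5 alpha-specific genes did, with a median SD of 1.11, beside 31.8% of all genes. The difference between the lists was not tested, and for AGA2 the noise SD was above the SD among segregants. The 3 alpha-specific genes past the noise were MF(ALPHA)2 with an SD of 1.51, STE3 with 1.41 and MF(ALPHA)1 with 1.11. MF(ALPHA)2 was higher in HS959 by 2.54 (limma adjusted p = 0.0234) and STE3 differed by -2.60 (limma adjusted p = 0.00486), so that these alpha-specific genes did not differ between the parents in 1 direction. Over the segregants AGA2 correlated with ASG7 at r = 0.88, MFA1 at 0.82, STE2 at 0.79 and MFA2 at 0.72, and with quantile normalization at 0.33, 0.63, -0.03 and 0.53.

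The genes of the pathway that carries the pheromone signal were counted beside them. Of 20 signalling components 11 rose, 0 fell and 9 did not pass, with a median change of 0.36, where 15% of all genes rose and 20.5% fell. DIG2, a Ste12 inhibitor gene, rose by 2.00, the phosphatase gene MSG5 by 1.80 and SST2, a desensitisation gene, by 1.56. All 12 cell and nuclear fusion genes rose, with a median of 4.17, led by PRM3 at 8.02, FIG1 at 6.48 and PRM2 at 6.43. The increase of FIG2 lay above that median, and those of AGA1, AGA2 and SAG1 below it. The signed change was lower in HS959 than in S96 in 9 of the 12 fusion genes and in 6 of the 7 a-specific genes. The same held for 2999 of all 6252 genes tested, a count that also takes in genes that fell more in HS959. The median change of the fusion list nevertheless was 4.23 in HS959 and 4.04 in S96, while that of the a-specific list was 0.76 and 1.17. The median untreated difference HS959 minus S96 was 0.15 in each of these lists, against 0.76 for AGA1 and 0.85 for AGA2, and -0.11 over all genes tested.

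Of 5 flocculin genes, the adhesins of vegetative cells, FLO10 alone rose, by 0.75 (limma adjusted p = 0.0109), and the median of the list was -1.10. FLO1 (-1.14), FLO5 (-0.98), FLO9 (-1.57) and FLO11 (-1.10) did not pass. Over all genes tested 15% rose and 20.5% fell, so 1 rise in a list of 5 is near the share over all genes. The median change of the list was 0.06 in S96, -3.46 in HS959 and -0.06 in SEG8. In HS959 alone FLO1 changed by -3.70, FLO5 by -3.46, FLO9 by -4.08 and FLO11 by -3.26. These values come from 1 treated and 1 untreated array. The median difference HS959 minus S96 of the list was 2.83 untreated and 0.68 treated, so the untreated HS959 array was high for these genes.

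**Figure D5:**
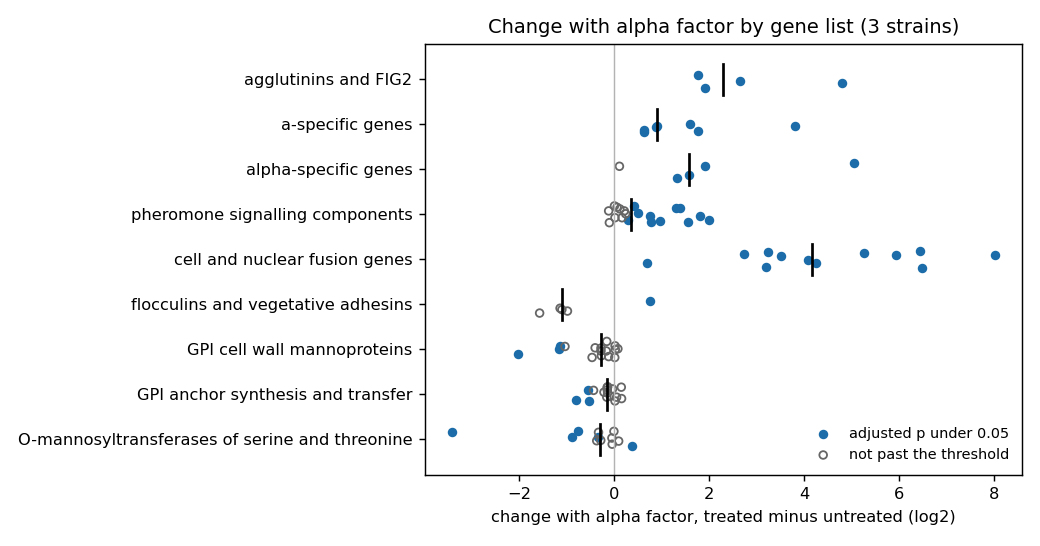
Change with alpha factor (horizontal axis, treated minus untreated, log2, mean of 3 strains) of each gene in 9 lists, filled where the limma adjusted p was under 0.05 and open otherwise, with a black bar at the median of the list. The agglutinins and FIG2 lie at 1.77 to 4.81, and the fusion genes reach 8.02.

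None of the nearest measured genes on either side of a member was called higher. Next to AGA1, MVD1 changed by 0.33 (limma adjusted p = 0.0548) and PET494 by -0.16. Next to AGA2, HOP2 changed by -0.21 and RPL24A by 0.03. Next to SAG1, MRX12 fell by 0.33 (limma adjusted p = 0.0433) and APL1 changed by 0.10, and next to FIG2, ABP1 changed by 0.27 and YCR090C fell by 1.26 (limma adjusted p = 0.00321). Over the 10 nearest genes, 5 on each side, the correlation with SAG1 among the segregants ran from -0.31 to 0.14. Of these 10 genes, 0 were called higher and 2 lower beside AGA1, 2 and 2 beside AGA2, 1 and 3 beside SAG1, and 1 and 6 beside FIG2, where the shares over all genes tested were 15% and 20.5%. SCW11, a wall glucanase gene, was the one with the highest change, 1.61, beside AGA2. Beside AGA2 the highest values were those of the ribosomal protein genes RPL30 and RPL24A, each with r of 0.84.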

How the data were processed

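The authors' scanner files hold intensity per spot: per the file headers, the Cy3 signal of array design 016322, background-subtracted and detrended over the array with Feature Extraction (Agilent, 10.5.1.1), with sacCer1 annotation. The submitters' processing notes name version 9.1 of that program. The deposited columns used also include the raw median intensity, its local background and 0 or 1 flags (other units, per the file headers). The series matrix held the same intensity in 626304 of 626304 cells. Thus the deposited values carried no normalization between arrays.

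Of 13048 spots 536 controls were dropped, as were the 0 to 97 outlier spots of each array. Saturated gene spots numbered 0. Median intensity was 9804 to 23353 per array. Each array's 75th percentile was subtracted on the log2 scale. A gene was tested if well above background on at least 2 of the 6 paired arrays (6252 genes) or 22 of the 43 segregant arrays (6230 genes). Gene names came from the systematic names through the RefSeq table of assembly R64 (5756 of 6256 matched). Chromosomes, coding lengths and the order of neighbouring genes came from the same table, for matched genes only. Coordinates of the array annotation were not used because the builds differ. No sequences were used.

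Tests used limma 3.58.1 in R 4.3.3 with Benjamini-Hochberg adjustment over all genes tested. The strain pairs the arrays, since the labels give each of 3 strains with and without alpha factor. Deviations from the condition mean of the treated and untreated array of a strain correlated over genes with r of 0.84 to 0.90. Nothing says that arrays came from separate cultures beyond the strain names, so p-values measure the spread between these arrays, which may be partly technical. Slides were read from the headers: slide 1 carried the parents and slide 2 the SEG8 arrays. The fits were also run on simulated data with known changes and independent noise per gene and array. That simulation held no slide effect and no unequal response of strains, so it does not test the fits for these. Python 3.11.15 and matplotlib 3.10.9 drew the plots.

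Members and lists were chosen with earlier results of these data known. Named genes are the members, every gene of lists of up to 7, the 3 largest called changes of longer lists, the 5 most and 2 least correlated genes per member, and nearest neighbours. FLO and SCW11 values within 1 strain or beyond the nearest gene and PMT6 were chosen after their values were seen. Alternatives were other scalings, normexp background (on the median signal, since the files hold no mean signal), outlier spots kept, no filter, no replicate block, each strain left out, slide as a block or variance within slides, and SEG14 left out.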

Additional observations from a re-analysis of the deposited data

How the results depend on the processing

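The 4 increases with alpha factor kept their direction under all 9 alternatives tried, from 2.39 to 2.98 for AGA1, 1.42 to 2.15 for AGA2, 1.57 to 2.34 for SAG1 and 4.57 to 4.96 for FIG2. The limma adjusted p missed the threshold only without SEG8, at 0.0803 for AGA2 and 0.0808 for SAG1. With no replicate block, that is with strain left out, all 4 were called (highest limma adjusted p = 0.0295) and 657 genes passed in place of 2220. Leaving out 1 strain gave 610 to 1636 genes. Between the parents 738 genes passed without SEG8 in place of 1290, and quantile normalization turned 417 higher and 873 lower into 700 and 599, with the median of all genes moving from -0.09 to 0.03. The single-condition differences HS959 minus S96, treated and untreated, were -0.43 and 0.76 for AGA1, -0.60 and 0.85 for AGA2, 1.33 and -0.22 for SAG1, and -0.44 and 0.34 for FIG2. Of variable genes 1146 passed within slides in place of 1984, and 449 to 1826 with 1 strain left out of the noise. The SD of SAG1 (0.78) passed with noise without S96 (adjusted p = 0.0357 in the F test on limma's noise variance). It did not pass with noise without HS959 (adjusted p = 0.102 in that F test) or without SEG8 (adjusted p = 0.207 in that F test). The segregant mean against parents gave 2 genes, 1 with normexp, 0 with slide as a block and 0 to 7 without a parent. The cause of these moves was not tested. All 4 genes were well above background on every array.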

Other observations

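Among genes that make and decorate GPI wall proteins, 1 was called higher with alpha factor. Of 16 genes of GPI anchor synthesis and transfer 0 rose and 3 fell, GPI13 by 0.81, MCD4 by 0.54 and GPI8, the catalytic subunit of the transamidase, by 0.53, and the median change was -0.14; over all genes tested 15% rose and 20.5% fell, so these counts of falls are near the share over all genes. Of 12 mannosyltransferase genes PMT6 rose by 0.39 (limma adjusted p = 0.0359) and 4 fell, among them MNN1 by 3.41, PMT5 by 0.89 and PMT3 by 0.76. Of 16 cell wall mannoprotein genes 0 rose and 3 fell, CWP1 by 2.03, FIT3 by 1.16 and YGP1 by 1.13, again a share of falls near that over all genes. Of the 16, 10 varied among the segregants past the noise, beside 31.8% of all genes.

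The segregant SEG3, highest for AGA1, AGA2 and FIG2 with the 75th percentile scaling, lay within the others for SAG1 at -0.62. Its array had the widest bright end of the segregants (3.46).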
